A study of Mus musculus with 12 samples.

Results

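The 26S proteasome genes described here were the 34 genes Psma1 to Psma7, Psmb1 to Psmb7, Psmc1 to Psmc6 and Psmd1 to Psmd14, taken by symbol from the 56748 genes of the count matrix of M2-like polarized bone marrow–derived macrophages (BMDM). They were taken by name, with earlier results of these data known. All 34 were found once and all 34 passed the filter on low counts, out of 15033 genes tested. By role they were the 7 subunits of the 20S alpha ring, the 3 catalytic and 4 structural subunits of the 20S beta ring, the 6 ATPases and 3 non-ATPases of the 19S base, 8 subunits of the 19S lid, and Psmd5, Psmd9 and Psmd10. The last 3 are chaperones that help to assemble the base and are not part of the mature particle.

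The 26S proteasome degrades proteins that carry ubiquitin chains. The 19S particle binds the chain, removes it, unfolds the substrate with its ring of ATPases and feeds it through the alpha ring into the 20S core, where the catalytic beta subunits cut it into peptides. In immune cells, interferons are known to induce alternative catalytic subunits, Psmb8, Psmb9 and Psmb10, which replace Psmb5, Psmb6 and Psmb7 in newly made particles (the immunoproteasome), and the PA28 activator Psme1 and Psme2, both linked to peptide supply for MHC class I. Transcription of the constitutive subunits is known to be raised together by the transcription factor Nfe2l1 when proteasome activity falls.

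The study asked how interferon beta (IFNβ) made by melanoma cells acts on macrophages. Bone marrow of C57BL/6J mice (age, and whether each library came from its own mouse, not given in the labels) was differentiated with 20 ng/mL M-CSF and then kept with 10 ng/mL IL-4 for 48 hours, so every condition, controls included, carried both cytokines before treatment. For a further 72 hours the cells of the 4 conditions (3 libraries each) received medium alone (control), supernatant (sn) of YUMM5.2 eGFP cells, sn of YUMM5.2 Ifnb1eGFP cells diluted to 1500 pg/mL IFNβ, or recombinant IFNβ (rIFNβ) at 1500 pg/mL. YUMM5.2 is a mouse melanoma line. Both donor lines carried a lentiviral vector with a tetracycline response promoter in front of eGFP alone or of Ifnb1 and eGFP, and both had been kept with 1 µg/mL doxycycline for 72 hours. The eGFP sn was diluted at the same ratio as the Ifnb1eGFP sn.

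Libraries held 31526034 to 45348457 estimated counts. The lowest count of any of the 34 genes in any library was 713, and their mean levels over the 12 libraries ran from 23.0 to 325.1 CPM (counts scaled to a common library total), with a median of 93.5 against 14.1 for all genes tested. The macrophage gene Csf1r lay between 1023 and 1189 CPM in all libraries. Of the IL-4 state genes Mrc1 lay between 609 and 839 CPM, while Arg1, another defining marker, stayed under 1 CPM. Chil3 was higher with Ifnb1eGFP sn than with eGFP sn and with rIFNβ than in the controls (log2 fold change 0.77 and 0.67, both called). Mrc1, Arg1 and Retnla were called in neither comparison. The summed level of 6 macrophage markers was 14060 to 15210 CPM in the controls, 17820 to 18390 with eGFP sn, 9155 to 9286 with Ifnb1eGFP sn and 8515 to 8618 with rIFNβ, with Lyz2 and Itgam lower and Adgre1, Cd68 and Mertk higher with IFNβ by value. It moved with IFNβ, as the calls below do, and its part in them was not tested. Markers of T cells, B cells, basophils and mast cells summed to under 1 CPM in every library, those of neutrophils and dendritic cells to at most 5.72 and 1.61 CPM, and those of fibroblasts to 27.6 to 77.6 CPM over all libraries. Some of these marker genes moved with IFNβ in both comparisons: the fibroblast genes Dcn (1.80 and 1.35) and Pdgfra (1.67 and 1.17) were higher, and Col1a1 (-1.03 and -1.08), the neutrophil gene S100a8 (-3.35 and -4.16), the dendritic cell gene Zbtb46 (-2.32 and -2.22) and the proliferation gene Mki67 (-0.58 and -0.37) were lower, in log2 fold change for the sn comparison and for rIFNβ. The other listed fibroblast gene, Col1a2, was called in neither (-0.08 and -0.23). Top2a, the other proliferation gene, was lower in the sn comparison alone (-0.28 and 0.03). Of 7 melanoma markers, Dct, Tyr, Tyrp1, Mlana and Sox10 had at most 5 counts in any library and Pmel at most 0.732 CPM. Mitf, which macrophages are also known to express, had 152 to 167 CPM without and 87.3 to 102 CPM with IFNβ (-0.68 and -0.89 in log2 fold change, both called). The part of these genes' cells in the results was not tested. Irf7, an interferon-stimulated gene, had 11, 45.2 and 6.62 CPM in the 3 eGFP sn libraries and 1333, 1695 and 1453 CPM with Ifnb1eGFP sn, so that eGFP sn replicate 2 stood apart from its group. Without that library 10 proteasome genes were higher and 9 lower in the sn comparison, against 10 and 11 with it. These were 29.4% and 26.5% without it, beside 26.6% and 22.1% of all genes. Ifnb1eGFP sn replicates 1 and 2 also stood apart over the proteasome genes (values below), and without replicate 1 the split was 8 and 13 and without replicate 2 it was 11 and 12. Without replicate 1 these were 23.5% and 38.2%, beside 26.9% and 26% of all genes. Without replicate 2 they were 32.4% and 35.3%, beside 29.2% and 28.3%. In bulk RNA, fewer cells of a type and less RNA per cell cannot be told apart.

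Of the 34 genes, 28 had an entry in the RefSeq promoter table (build GRCm38.p6, 250 bases before to 50 after each start), with 30 starts in all; Psmb1, Psmb2, Psmb7, Psmc3, Psmd3 and Psmd7 had none. Both strands were searched for the antioxidant response element cores TGACNNNGC and TGAGNNNGC, to which Nfe2l1 and Nfe2l2 are known to bind, the interferon-stimulated response element core GAAANNGAA, the gamma-activated site TTCNNNGAA and the NF-Y box CCAAT. TGACNNNGC was in 5 of the 30 promoters (16.7%), against 12.4% of all 32851 promoters in the table, and TGAGNNNGC in 12 (40%), against 17.6%. GAAANNGAA was in 5 (16.7%), against 8.56%, TTCNNNGAA in 1 (3.33%), against 8.3%, and CCAAT in 11 (36.7%), against 37.4%. CCAAT was present for 6 of the 8 genes that were higher in both IFNβ comparisons below and had a promoter entry, for 1 of the 9 that were lower in both, and for 4 of the other 11. In the same order TGACNNNGC was present for 1, 1 and 3 genes, TGAGNNNGC for 2, 4 and 5, GAAANNGAA for 2, 0 and 3 and TTCNNNGAA for 0, 1 and 0. These groups depend on the scaling. Of the 6 higher genes with CCAAT, only Psma1 and Psmd4 kept both calls with the GC and length offsets described below. Psmc2 and Psmd10 lost both, Psmc1 lost its rIFNβ call, and Psma2 lost its sn call and was called lower with rIFNβ. Psma7, the 1 lower gene with CCAAT, lost its sn call. A match is a run of letters and was not tested as a binding site.

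The 250 bases before the start are shown for 6 of the genes that the results below turn on and, for comparison, for the inducible Psmb8, 5′ to 3′ on the strand of the gene, with every motif match in capitals. Psma1, at chr7:114276117-114276366 (minus strand), and Psmd4, at chr3:95042615-95042864 (minus strand), are shown as genes that were higher in both IFNβ comparisons and hold NF-Y boxes. In Psma1 these began at positions -126 and -98 from the start, and Psmd4 had 1 at -95 and an interferon-stimulated response element core at -79. Psmc5, at chr11:106255935-106256184 (plus strand), the ATPase with the smallest adjusted p, had no match to any of the motifs. Psmb5, at chr14:54617996-54618245 (minus strand), and Psmb6, at chr11:70525107-70525356 (plus strand), are catalytic subunits with an antioxidant response element core at -47 and -9. Psmd1, at chr1:86064369-86064618 (plus strand), a gene that was lower, had the other core at -224. Psmb8, at chr17:34197945-34198194 (plus strand), had a gamma-activated site at -97, where the pattern TTCNNNGAA matches on both strands.
Psma1: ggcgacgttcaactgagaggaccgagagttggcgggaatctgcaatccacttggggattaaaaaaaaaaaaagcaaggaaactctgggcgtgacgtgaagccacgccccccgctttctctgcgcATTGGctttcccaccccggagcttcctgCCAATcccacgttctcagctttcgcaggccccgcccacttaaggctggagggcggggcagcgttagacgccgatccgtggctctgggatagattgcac
Psmd4: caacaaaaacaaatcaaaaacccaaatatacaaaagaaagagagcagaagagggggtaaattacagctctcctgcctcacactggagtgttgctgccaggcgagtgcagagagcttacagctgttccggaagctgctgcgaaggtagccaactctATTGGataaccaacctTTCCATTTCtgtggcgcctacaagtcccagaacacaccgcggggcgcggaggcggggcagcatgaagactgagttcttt
Psmc5: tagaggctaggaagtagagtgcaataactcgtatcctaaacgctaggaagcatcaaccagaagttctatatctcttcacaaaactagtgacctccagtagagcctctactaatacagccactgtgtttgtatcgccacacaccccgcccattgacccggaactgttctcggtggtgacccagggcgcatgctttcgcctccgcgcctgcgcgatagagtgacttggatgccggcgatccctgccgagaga
Psmb5: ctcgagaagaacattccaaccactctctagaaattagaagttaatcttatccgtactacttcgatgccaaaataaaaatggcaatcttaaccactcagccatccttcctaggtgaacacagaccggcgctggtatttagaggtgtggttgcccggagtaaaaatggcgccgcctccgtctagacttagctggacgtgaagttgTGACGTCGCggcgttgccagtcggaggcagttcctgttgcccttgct
Psmb6: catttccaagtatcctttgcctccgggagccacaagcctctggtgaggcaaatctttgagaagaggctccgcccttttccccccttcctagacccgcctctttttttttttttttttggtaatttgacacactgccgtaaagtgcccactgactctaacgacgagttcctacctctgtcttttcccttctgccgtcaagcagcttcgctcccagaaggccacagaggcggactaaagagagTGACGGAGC
Psmd1: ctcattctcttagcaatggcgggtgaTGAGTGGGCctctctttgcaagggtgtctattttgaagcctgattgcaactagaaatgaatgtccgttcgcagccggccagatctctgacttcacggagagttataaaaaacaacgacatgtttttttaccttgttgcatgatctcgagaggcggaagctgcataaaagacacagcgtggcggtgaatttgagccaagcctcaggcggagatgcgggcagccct
Psmb8: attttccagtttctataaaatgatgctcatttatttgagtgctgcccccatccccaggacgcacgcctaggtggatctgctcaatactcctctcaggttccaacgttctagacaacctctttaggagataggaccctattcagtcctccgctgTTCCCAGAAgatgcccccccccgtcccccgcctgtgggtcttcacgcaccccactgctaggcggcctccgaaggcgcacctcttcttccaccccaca

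Levels of different genes were compared per kilobase of the Ensembl canonical transcript. In the controls the median over the 34 genes was 53.2 CPM per kb. Psmd8, a lid subunit, was highest at 171 CPM per kb, followed by the catalytic Psmb6 at 141, the base subunit Psmd2 at 113 and Psma7 at 101. The assembly chaperones were lowest, with 8.79 for Psmd9, 8.93 for Psmd5 and 15.5 for Psmd10. Psmb1, at 17.9 CPM per kb, and Psmb2, at 18.2, are mature subunits whose annotated canonical transcripts are long (6002 and 4019 bases), so their level per kilobase depends on that annotation. With the longest annotated transcript as the length the median became 31.7 and with the union of exons 20.3 CPM per kb.

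IFNβ left the summed level of the 34 transcripts nearly where it was while individual genes moved in both directions by small amounts. The sums were 3596 ± 43 CPM in the controls, 3564 ± 49.5 with eGFP sn, 3539 ± 41.3 with Ifnb1eGFP sn and 3512 ± 25.7 with rIFNβ (SD, n = 3). The lowest control sum, 3549 CPM, lay above all 3 rIFNβ sums (3485 to 3536), and the eGFP sn sums (3507 to 3594) overlapped the Ifnb1eGFP sn sums (3493 to 3570). Calls are an adjusted p of at most 0.05 in edgeR (quasi-likelihood, Benjamini-Hochberg over every gene tested). Ifnb1eGFP sn against eGFP sn gave 10 genes higher (29.4%) and 11 lower (32.4%). Among all genes tested 30.1% were higher and 25% lower. rIFNβ against control gave 11 higher (32.4%) and 10 lower (29.4%), and among all genes 30.7% were higher and 24.6% lower. The share of proteasome genes that was called was thus near that of all genes, and the following values describe single genes and roles.

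The changes were small. The log2 fold changes of the 34 genes ran from -0.37 to 0.47 in the sn comparison and from -0.44 to 0.44 with rIFNβ, and none reached 0.5, while 38.6% and 39.1% of all genes did. Their medians were 0.018 and 0.002, beside 0.028 and 0.044 for all genes. At the thresholds of the study (absolute log2 fold change of at least 2, adjusted p of at most 0.01), 0 of the 34 genes were called in either comparison, against 5.39% and 5.77% of all genes. Complete separation of the 3 libraries of one condition from the 3 of the other was seen for 22 proteasome genes (64.7%) in the sn comparison and 59% of all genes, and for 26 (76.5%) and 66.1% with rIFNβ.

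The split into higher and lower depended on the scaling. With offsets that remove each library's trend over transcript GC content and length, 6 genes were higher and 14 lower in the sn comparison and 4 and 16 with rIFNβ. These were 17.6% and 41.2% of the 34 genes in the sn comparison and 11.8% and 47.1% with rIFNβ. Among all genes the offsets gave 29.8% higher and 29.4% lower in the sn comparison and 29.8% and 30.3% with rIFNβ. With RLE factors in edgeR the rIFNβ split became 7 and 13 and with DESeq2 8 and 13, while the sn split was 10 and 12 with both. The rIFNβ splits were 20.6% and 38.2% with RLE factors and 23.5% and 38.2% with DESeq2, and the sn split 29.4% and 35.3%. Of all genes, RLE factors gave 27.4% higher and 27.3% lower in both comparisons. DESeq2 gave 26.7% and 26.5% in the sn comparison and 26.9% and 26.6% with rIFNβ. When only the compared conditions entered the fit, the splits were 10 and 8 and 9 and 14. These were 29.4% and 23.5% of the 34 genes in the sn comparison and 26.5% and 41.2% with rIFNβ. The shares of all genes were 26.1% and 21.3% in the sn comparison and 30.7% and 28.7% with rIFNβ. The offsets moved the median log2 fold change of the 34 genes to -0.066 in the sn comparison and -0.110 with rIFNβ, with medians of 0.001 and -0.009 for all genes.

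**Figure D1:**
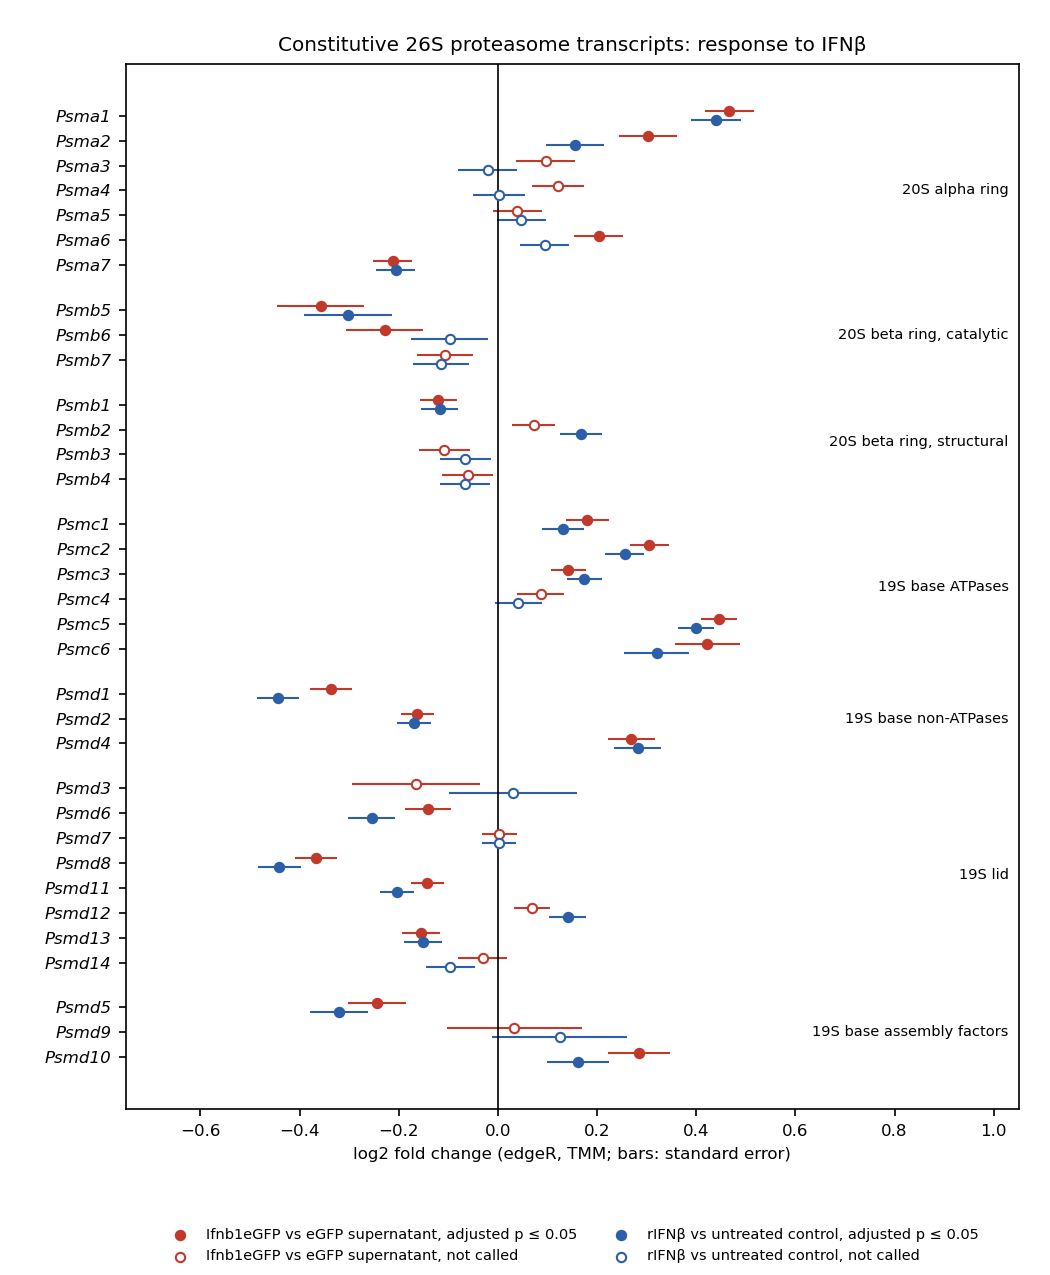
Log2 fold change of each of the 34 genes with its standard error (x axis), grouped by role (y axis), for Ifnb1eGFP sn against eGFP sn (red) and rIFNβ against control (blue). Filled points have an adjusted p of at most 0.05. All 6 ATPases lie right of 0 in both comparisons and all 3 catalytic subunits left of it, and no point lies beyond 0.5.

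**Figure D2:**
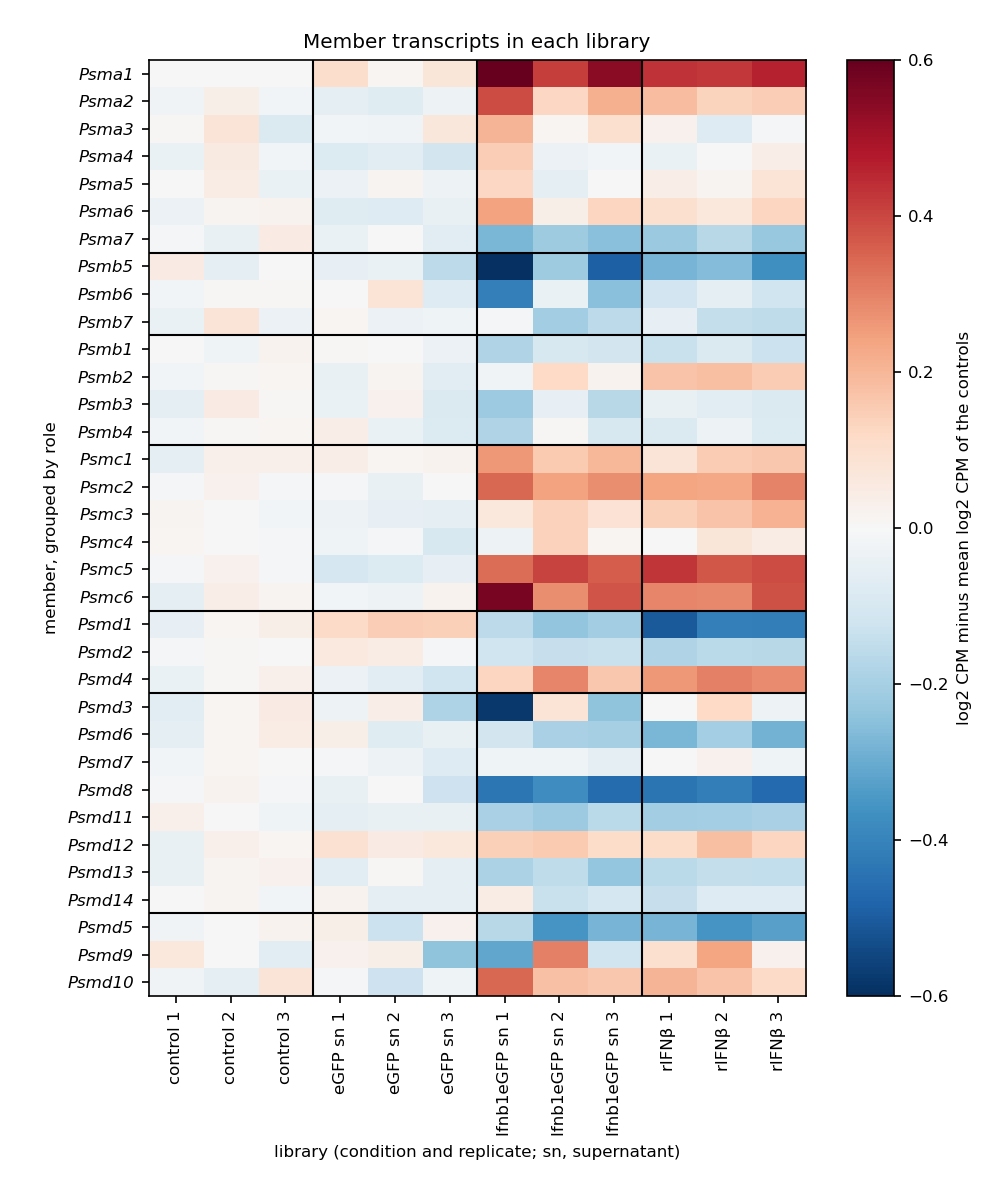
Log2 CPM of each of the 34 genes in each of the 12 libraries, minus the mean of that gene over the controls, in rows by role and columns by condition. Psmc5 and Psma1 are red and Psmd1 and Psmd8 blue in all 6 libraries with IFNβ, while Psmd3 and Psmd9 differ in sign between the 3 Ifnb1eGFP sn libraries.

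The 7 alpha ring subunits form the outer rings of the core, through whose pore substrates enter. In the sn comparison 3 of them were higher (Psma1, Psma2, Psma6), 1 was lower (Psma7) and 3 were not called, and with rIFNβ 2 were higher (Psma1, Psma2) and 1 lower (Psma7). Psma1 (ENSMUSG00000030751, chromosome 7) had 95.9, 96.3 and 96.1 CPM in the controls, 103, 97 and 101 with eGFP sn, 148, 128 and 140.1 with Ifnb1eGFP sn and 130, 129 and 132 with rIFNβ. All 6 libraries with IFNβ were above all 6 without it. The log2 fold changes were 0.47 ± 0.050 (SE) in the sn comparison (adjusted p = 1.05e-05, 38.2% higher) and 0.44 ± 0.050 with rIFNβ (adjusted p = 1.67e-05). With the GC and length offsets they were 0.18 and 0.16, both still called.

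Psma7 (ENSMUSG00000027566, chromosome 2) went the other way, with 94.6, 92.1 and 98.3 CPM in the controls, 92.5, 94.9 and 90.8 with eGFP sn, 78.4, 81.9 and 79.8 with Ifnb1eGFP sn and 81.3, 84.7 and 81 with rIFNβ. The 6 libraries with IFNβ were all below the 6 without. It changed by -0.21 ± 0.040 on the log2 scale (adjusted p = 0.000784) and -0.21 ± 0.040 (adjusted p = 0.000935), and with the offsets the first was -0.09 and no longer called (adjusted p = 0.141). Psma2 (ENSMUSG00000015671, chromosome 13) had 120.5, 125 and 121 CPM in the controls, 117, 116 and 119.8 with eGFP sn, 160.4, 133 and 142 with Ifnb1eGFP sn and 139, 134 and 135 with rIFNβ. Its libraries did not overlap between the conditions of either comparison, with log2 fold changes of 0.30 ± 0.058 (adjusted p = 0.00101) and 0.16 ± 0.058 (adjusted p = 0.0406). The rIFNβ call of Psma2 was lost without any 1 of the 6 libraries (adjusted p 0.0557 to 0.113), and with the offsets its values were 0.01 (adjusted p = 0.85) and -0.13 (adjusted p = 0.0091), the second a call in the opposite direction.

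Psma6 had log2 fold changes of 0.20 in the sn comparison (adjusted p = 0.00457) and 0.09 with rIFNβ (adjusted p = 0.129), and the first was not called without Ifnb1eGFP sn replicate 1 (adjusted p = 0.0899) or with the offsets (adjusted p = 0.0623). Psma3, Psma4 and Psma5 had 0.10 and -0.02, 0.12 and 0.00 and 0.04 and 0.05 and were not called. With the offsets Psma3 was called lower in both, at -0.20 and -0.30, and Psma4 was called higher without Ifnb1eGFP sn replicate 2 (adjusted p = 0.0297). The estimated counts of Psma3, Psma4 and Psma5 were not whole numbers in any library, as happens where reads are divided between features. The summed level of the ring was 672 ± 10.6 CPM in the controls and 658 ± 2 with eGFP sn, against 742 ± 47.6 and 716 ± 7.9 CPM with IFNβ in the sn and as rIFNβ. Psma1 and Psma2 alone had means of 100.4 and 117.8 CPM with eGFP sn and 138.8 and 145.2 with Ifnb1eGFP sn. With the offsets 1 of the 7 was higher and 1 lower in the sn comparison, and 1 higher and 3 lower with rIFNβ. The ring's median log2 fold changes were then 0.009 and -0.092.

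The 3 catalytic subunits carry the active sites of the constitutive core. None was higher. Psmb5 was lower in both comparisons, Psmb6 in the sn comparison, and Psmb7 in neither. Psmb5 (ENSMUSG00000022193, chromosome 14), the chymotrypsin-like subunit, had 101, 94.3 and 98 CPM in the controls, 94.5, 95.3 and 87.9 with eGFP sn, 62.7, 84.3 and 69.7 with Ifnb1eGFP sn and 80.6, 81.7 and 76 with rIFNβ. All libraries with IFNβ were below all those without, and the 3 Ifnb1eGFP sn libraries were spread more widely than the others. Psmb5 changed by -0.36 ± 0.088 on the log2 scale (adjusted p = 0.005, 22% lower) and -0.30 ± 0.088 (adjusted p = 0.0127).

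Psmb6 (ENSMUSG00000018286, chromosome 11), the caspase-like subunit, had 145, 147 and 147 CPM in the controls, 147, 155 and 139 with eGFP sn, 110.2, 143 and 123 with Ifnb1eGFP sn and 135, 141 and 135 with rIFNβ. Ifnb1eGFP sn replicate 2 lay within the range of the eGFP sn libraries, and the rIFNβ libraries were below all controls. Psmb6 changed by -0.23 ± 0.078 on the log2 scale (adjusted p = 0.027) and -0.10 ± 0.078 (adjusted p = 0.316). The sn call was lost without eGFP sn replicate 1, without eGFP sn replicate 2 or without Ifnb1eGFP sn replicate 3 (adjusted p 0.0606, 0.0975 and 0.0764) and when only these 2 conditions entered the fit (adjusted p = 0.102), and the rIFNβ value became a call with the offsets (adjusted p = 0.0474) and with only these 2 conditions (adjusted p = 0.00688). Psmb7 (ENSMUSG00000026750, chromosome 2), the trypsin-like subunit, had 96.5, 105 and 97 CPM in the controls, 100.1, 97 and 97.4 with eGFP sn, 98.5, 85.9 and 89 with Ifnb1eGFP sn and 95.9, 89.9 and 89.4 with rIFNβ. Its log2 fold changes of -0.11 ± 0.056 and -0.11 ± 0.056 were not called (adjusted p = 0.13 and 0.105), but were with the offsets (-0.18 and -0.21, adjusted p = 0.0113 and 0.00511). The sn value was also called without Ifnb1eGFP sn replicate 1 (adjusted p = 0.00747), and the rIFNβ value with RLE factors (adjusted p = 0.0474), with DESeq2 (0.0406) and with only these 2 conditions (0.0251).

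The inducible counterparts moved far more than the constitutive subunits. Psmb8, which takes the place of Psmb5, had 63.1, 58.5 and 63.9 CPM in the controls, 56.8, 70.1 and 56.7 with eGFP sn, 209.7, 235 and 214 with Ifnb1eGFP sn and 249, 251 and 238 with rIFNβ. Its log2 fold changes were 1.84 ± 0.082 (adjusted p = 8.46e-09) and 1.99 ± 0.082 (adjusted p = 4.21e-09). Psmb9, the counterpart of Psmb6, rose by 2.24 ± 0.142 and 2.5 ± 0.143 on the log2 scale (adjusted p = 1.36e-07 and 5.39e-08). Psmb10, the counterpart of Psmb7, rose by 0.93 ± 0.182 and 1.21 ± 0.183 (adjusted p = 0.00115 and 0.000159), with 71.2, 124 and 84.2 CPM in the 3 Ifnb1eGFP sn libraries.

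Per kilobase, the inducible transcript made up 38.7% ± 0.653 of the Psmb5 and Psmb8 pair in the controls, 39.7% ± 2.46 with eGFP sn, 75.3% ± 1.72 with Ifnb1eGFP sn and 75.6% ± 0.22 with rIFNβ (SD, n = 3). For Psmb6 and Psmb9 the shares were 8.42% ± 0.172, 8.54% ± 1.39, 34.3% ± 0.801 and 35.8% ± 0.664 in the same order. For Psmb7 and Psmb10 they were 33.1% ± 1.75, 30.5% ± 4.19, 46.9% ± 8.61 and 55.3% ± 1.42. The constitutive transcript thus stayed the larger part of the Psmb6 pair in every library. It became the smaller part of the Psmb5 pair in all 6 libraries with IFNβ, and of the Psmb7 pair in the 3 rIFNβ libraries and 1 of the 3 Ifnb1eGFP sn libraries. These are shares of transcripts, and no protein was measured.

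**Figure D3:**
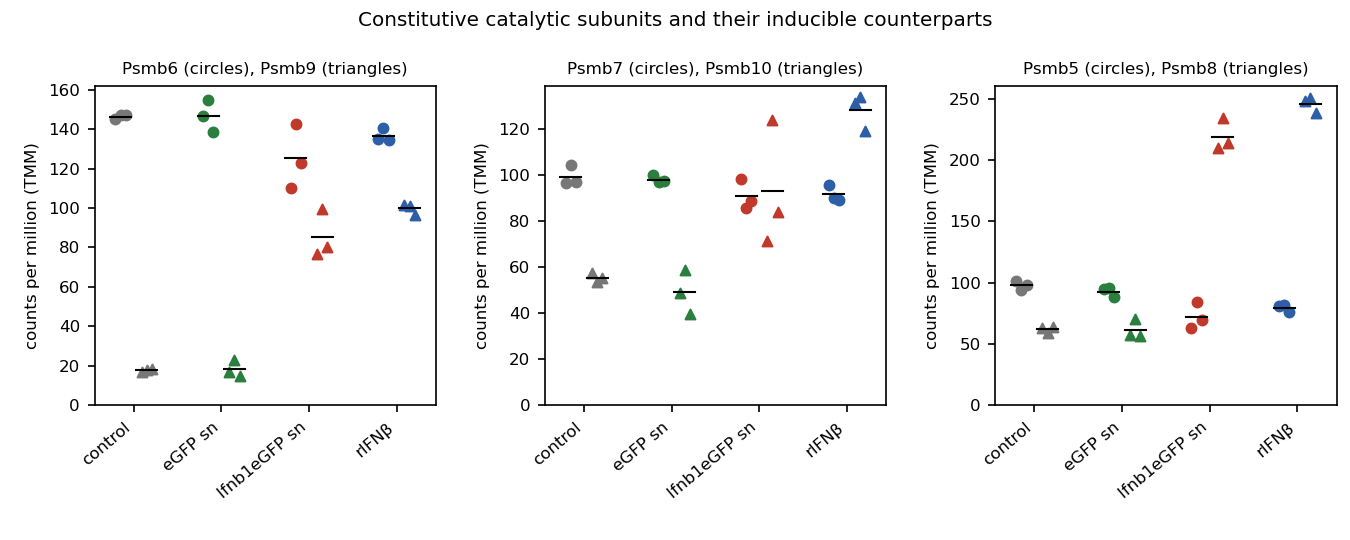
CPM of each constitutive catalytic subunit (circles) and its inducible counterpart (triangles) in each library, by condition, with black lines at the mean of 3 libraries. In the 6 libraries with IFNβ, Psmb8 lies far above Psmb5, Psmb9 stays below Psmb6, and Psmb10 crosses Psmb7 in the rIFNβ libraries and in Ifnb1eGFP sn replicate 2.

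Of the 4 structural beta subunits, which carry no active site, Psmb1 was lower in both comparisons (-0.12 and -0.12, adjusted p = 0.0163 and 0.0184). These calls were close to the threshold: the sn call was lost without eGFP sn replicate 1 or 2 (adjusted p up to 0.0523), and the rIFNβ call without control replicate 3, rIFNβ replicate 1 or rIFNβ replicate 3 (adjusted p up to 0.0648). With the offsets the values of Psmb1 were -0.31 and -0.27 (adjusted p = 0.0004 and 0.0011), both called. Psmb2 was higher with rIFNβ (0.17, adjusted p = 0.006) and had 0.07 in the sn comparison (adjusted p = 0.176), and with the offsets the rIFNβ value was 0.13 (adjusted p = 0.0517). Psmb3 and Psmb4 had -0.11 and -0.07 and -0.06 and -0.07 and were not called, but with the offsets both were called lower in both comparisons (-0.20 and -0.16 for Psmb3, -0.19 and -0.20 for Psmb4). Psmb3 was also called in the sn comparison without Ifnb1eGFP sn replicate 2 (adjusted p = 0.0155), with RLE factors (0.02), with DESeq2 (0.0135) and in the blocked fit that has the replicate number as a term (0.0482). Psmb4 was called lower with rIFNβ under RLE factors (0.0467), DESeq2 (0.0387) and only these 2 conditions (0.0263).

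The 6 ATPases form the ring that unfolds substrates. They were the role with the most rises, with 5 of 6 (83.3%) higher in both comparisons, beside 30.1% and 30.7% of all genes. None was lower, and Psmc4 was not called (0.09 and 0.04, adjusted p = 0.145 and 0.495). The median log2 fold change of the 6 was 0.243 in the sn comparison and 0.215 with rIFNβ. Their summed level was 607 ± 8.16 CPM in the controls, 596 ± 2.97 with eGFP sn, 714 ± 12.1 with Ifnb1eGFP sn and 707 ± 12.9 with rIFNβ (SD, n = 3). With the offsets 4 of the 6 (66.7%) were higher in the sn comparison and 2 (33.3%) with rIFNβ, and none was lower. Among all genes the offsets gave 29.8% higher in both comparisons, so the rIFNβ share was near that of all genes. The medians of the 6 were then 0.123 and 0.041.

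Psmc5 (ENSMUSG00000020708, chromosome 11) had the smallest adjusted p of the 34 genes in both comparisons, with 89.8, 92.2 and 89.9 CPM in the controls, 84.6, 85.5 and 87.7 with eGFP sn, 114, 120.2 and 117 with Ifnb1eGFP sn and 122, 117 and 119 with rIFNβ. The 6 libraries with IFNβ were all above the 6 without. The log2 fold changes were 0.45 ± 0.036 (adjusted p = 1.08e-06, 36.2% higher) and 0.40 ± 0.036 (adjusted p = 2.52e-06, 31.8% higher), and 0.43 and 0.33 with the offsets.

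Psmc6 (ENSMUSG00000021832, chromosome 14) had 86.4, 92.3 and 91 CPM in the controls, 88.8, 87.9 and 91.2 with eGFP sn, 133, 109 and 117 with Ifnb1eGFP sn and 109.9, 109.7 and 117 with rIFNβ. Again no library with IFNβ overlapped those without, and Ifnb1eGFP sn replicate 1 was the highest. Psmc6 rose by 0.42 ± 0.066 on the log2 scale (adjusted p = 0.000206) and 0.32 ± 0.066 (adjusted p = 0.00148). With the offsets they were 0.13 (adjusted p = 0.0103) and 0.04 (adjusted p = 0.395), so the second call was lost. Psmc2 (ENSMUSG00000028932, chromosome 5) had 97.6, 100.2 and 97.7 CPM in the controls, 97.9, 95.6 and 98.6 with eGFP sn, 125, 116 and 119.6 with Ifnb1eGFP sn and 116, 116 and 121 with rIFNβ, without overlap. Its log2 fold changes were 0.31 ± 0.039 (adjusted p = 4.09e-05) and 0.26 ± 0.039 (adjusted p = 0.000164), but 0.01 and -0.04 with the offsets (adjusted p = 0.854 and 0.301).

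Psmc1 was higher by 0.18 and 0.13 (adjusted p = 0.00401 and 0.0226). Its sn call was lost without Ifnb1eGFP sn replicate 1 (adjusted p = 0.0614), its rIFNβ call without control replicate 1, rIFNβ replicate 2 or rIFNβ replicate 3 (adjusted p up to 0.0905), and with the offsets its rIFNβ value was 0.04 (adjusted p = 0.397). Psmc3 was higher by 0.14 and 0.17 (adjusted p = 0.00512 and 0.00135), and by 0.23 and 0.17 with the offsets.

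The 3 non-ATPases of the base were split in both comparisons, with Psmd4 higher and Psmd1 and Psmd2 lower, and the same 3 calls were made with the offsets. Psmd1 and Psmd2 are large scaffold subunits to which ubiquitin receptors and shuttle proteins dock, and Psmd4 is itself a ubiquitin receptor. Psmd1 (ENSMUSG00000026229, chromosome 1) had 241, 252 and 256 CPM in the controls, 270.1, 277 and 276 with eGFP sn, 224, 212 and 216 with Ifnb1eGFP sn and 176, 188 and 187 with rIFNβ. The libraries of the 4 conditions fell into 4 ranges that did not overlap, highest with eGFP sn and lowest with rIFNβ. Psmd1 changed by -0.34 ± 0.042 on the log2 scale (adjusted p = 3.98e-05, 20.8% lower) and -0.44 ± 0.043 (adjusted p = 3.96e-06, 26.4% lower). Psmd2 (ENSMUSG00000006998, chromosome 16) had 338, 342 and 339.7 CPM in the controls, 354, 351 and 338 with eGFP sn, 313, 308 and 310.1 with Ifnb1eGFP sn and 300.2, 303 and 303 with rIFNβ. All libraries with IFNβ were below all those without, at -0.16 ± 0.034 and -0.17 ± 0.034 on the log2 scale (adjusted p = 0.00166 and 0.0012). Psmd4 was higher by 0.27 and 0.28 (adjusted p = 0.000527 and 0.00036).

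The 8 lid subunits hold the deubiquitinase Psmd14 and its partner Psmd7 within a scaffold. In both comparisons 4 were lower (Psmd6, Psmd8, Psmd11, Psmd13), and Psmd12 was higher with rIFNβ alone (0.07 and 0.14, adjusted p = 0.139 and 0.00732). Psmd8 (ENSMUSG00000030591, chromosome 7) had 262, 268 and 263 CPM in the controls, 256, 264 and 242 with eGFP sn, 196, 204 and 192 with Ifnb1eGFP sn and 195, 198 and 192 with rIFNβ. The 6 libraries with IFNβ were all below the 6 without, with log2 fold changes of -0.37 ± 0.043 (adjusted p = 2e-05, 22.4% lower) and -0.44 ± 0.043 (adjusted p = 4.18e-06, 26.3% lower). Psmd11 was at -0.14 and -0.20 and Psmd13 at -0.16 and -0.15 on the log2 scale, and with the offsets the Psmd11 values were -0.43 and -0.49. Psmd6 was at -0.14 and -0.25, and its sn call (adjusted p = 0.0244) was lost without eGFP sn replicate 1, Ifnb1eGFP sn replicate 2 or Ifnb1eGFP sn replicate 3 (adjusted p up to 0.101).

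Psmd7 stayed at 0.00 and 0.00 and Psmd14 at -0.03 and -0.10, neither called, although Psmd14 was called lower in the sn comparison without Ifnb1eGFP sn replicate 1 (adjusted p = 0.0249), and with rIFNβ under RLE factors (0.0446), DESeq2 (0.0387) and only these 2 conditions (0.0115). Psmd7 was called lower with rIFNβ when the offsets and the block were used together (adjusted p = 0.023). With the offsets the rIFNβ value of Psmd12 was -0.01 (adjusted p = 0.868), and its call was also lost with RLE factors (0.0515). Psmd3, another lid scaffold subunit, had 57.6, 91.2 and 72.7 CPM in the Ifnb1eGFP sn libraries against 84.3, 88.5 and 75.7 with eGFP sn, and its log2 fold changes of -0.17 ± 0.129 and 0.03 ± 0.129 were not called. It was called lower in the sn comparison without Ifnb1eGFP sn replicate 2 (adjusted p = 0.0102). The summed level of the lid was 868 ± 11.7 CPM in the controls, 847 ± 21.9 with eGFP sn, 759.5 ± 18.9 with Ifnb1eGFP sn and 769.6 ± 14.5 with rIFNβ. Psmd8 alone had a mean of 254.4 CPM with eGFP sn and 197.3 with Ifnb1eGFP sn.

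**Figure D4:**
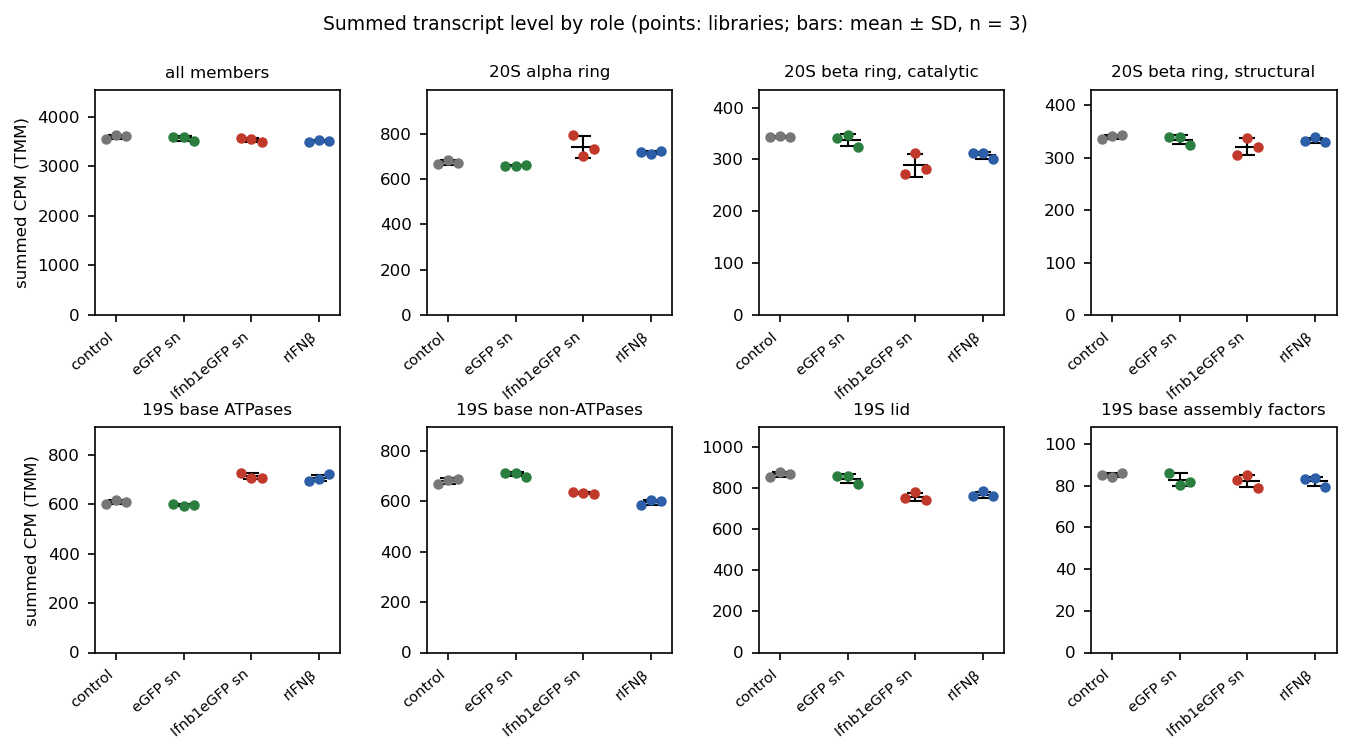
Summed CPM of all 34 genes and of each role in each library (points), with the mean and SD of 3 libraries (black bars), by condition, on axes from 0. In these TMM-scaled sums, where abundant genes weigh most, the total is almost level. The ATPases and alpha ring are higher with IFNβ, and the lid, the catalytic subunits and the base non-ATPases are lower. With the GC and length offsets only 1 of the 7 alpha ring genes was called higher in either comparison. Of the 6 ATPases, 4 were called higher with the offsets in the sn comparison and 2 with rIFNβ.

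The 3 base chaperones each did something different. Psmd5 (ENSMUSG00000026869, chromosome 2) had 38.6, 39.3 and 39.8 CPM in the controls, 40.2, 35.9 and 40.0 with eGFP sn, 34.9, 30.7 and 32.4 with Ifnb1eGFP sn and 32.3, 30.6 and 31.3 with rIFNβ. Every library with IFNβ was below every one without, and the log2 fold changes were -0.24 ± 0.058 (adjusted p = 0.00396) and -0.32 ± 0.058 (adjusted p = 0.000632). Psmd9 (ENSMUSG00000029440, chromosome 5) had 23.8, 22.9 and 21.8 CPM in the controls, 23.2, 23.4 and 19.3 with eGFP sn, 18.4, 28.1 and 21 with Ifnb1eGFP sn and 24.4, 26.9 and 23.2 with rIFNβ, with overlapping conditions. Its values of 0.03 ± 0.136 and 0.12 ± 0.136 were not called, and the sign of the first turned with RLE factors, DESeq2 and the offsets. Psmd10 (ENSMUSG00000031429, chromosome X), also known as gankyrin, had 22.7, 22.1 and 24.2 CPM in the controls, 22.8, 21.1 and 22.5 with eGFP sn, 29.2, 26 and 25.7 with Ifnb1eGFP sn and 26.5, 25.8 and 24.9 with rIFNβ. The conditions did not overlap, at 0.28 ± 0.063 (adjusted p = 0.00245) and 0.16 ± 0.063 (adjusted p = 0.0467). The rIFNβ call of Psmd10 was lost without control replicate 1 or 2 or without any 1 rIFNβ library (adjusted p up to 0.15), and with the offsets both values were below 0 (-0.01 and -0.13) and not called.

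The responses to IFNβ from tumor cells and to recombinant IFNβ were set side by side. These 2 comparisons share no library. Of the 34 genes 9 were higher in both, 10 lower in both, 2 called in the sn comparison alone (Psma6 and Psmb6), 2 with rIFNβ alone (Psmb2 and Psmd12), 11 in neither and 0 in opposite directions. The sign of the log2 fold change was the same for 32 of 34. Across the 34 genes the log2 fold changes of the comparisons had Pearson's r = 0.938 and Spearman's rho = 0.915, and across all genes tested 0.901 and 0.888, given as a description because genes are not independent replicates.

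Tested directly, Ifnb1eGFP sn against rIFNβ gave 0 of 34 genes, against 0.16% of all genes, by edgeR's test, with 3 at an unadjusted p under 0.05 and log2 fold changes from -0.25 to 0.24. DESeq2 called 1 gene, Psmd1, which also had the smallest adjusted p in edgeR. It was 0.24 ± 0.042 higher with Ifnb1eGFP sn on the log2 scale (adjusted p = 0.0639 in edgeR and 0.000122 in DESeq2), and all 3 Ifnb1eGFP sn libraries were above all 3 rIFNβ libraries. Without Ifnb1eGFP sn replicate 2, edgeR called 5 genes, with Psmd1 higher (0.26, adjusted p = 0.0274) and Psmb5, Psmb6, Psmb2 and Psmd3 lower than with rIFNβ (-0.43 to -0.17). The 0.16% of all genes belongs to the edgeR fit of all 12 libraries. The shares of all genes without replicate 2 and with DESeq2 are not given here. These calls therefore cannot be set against them. eGFP sn against control gave 0 of 34, against 0.299% of all genes, by edgeR and by DESeq2, with 1 at an unadjusted p under 0.05 and log2 fold changes from -0.09 to 0.14. The smallest adjusted p was again that of Psmd1, 0.14 ± 0.042 higher with eGFP sn (adjusted p = 0.334), where all 3 libraries were above the controls. The interaction, that is the difference between the response to IFNβ in sn and in medium, gave 0 of 34 genes by both tools, against 0% of all genes in edgeR, with 0 at an unadjusted p under 0.05. Its smallest adjusted p, 0.926, was shared by several of the 34 genes. Among these were Psma2, at 0.15 ± 0.083, and Psmd1, at 0.11 ± 0.060. A p above the threshold does not show that the conditions act alike.

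The Ifnb1eGFP sn libraries differed among themselves more than those of the other conditions. The SD over the 34 genes of a library's deviation from its condition mean was 0.116 and 0.119 (log2) for Ifnb1eGFP sn replicates 1 and 2, and 0.0223 to 0.0483 for the other 10 libraries. Between those 2 libraries the log2 difference correlated with transcript GC content with r = -0.591 across the 34 genes and r = -0.428 across 14962 genes, while for pairs of libraries within the other conditions r across all genes lay between -0.096 and 0.14. Across the 34 genes alone such pairs ranged more widely, from -0.486 to 0.597, both between eGFP sn libraries, while the SD of their log2 differences was at most 0.0882, against 0.234 for the Ifnb1eGFP sn pair. These are correlations across genes that share their libraries, given as a description. The share of this trend in the log2 fold changes above was not tested beyond the offsets. Across the 34 genes, the log2 fold change correlated with GC content with r = -0.374 in the sn comparison and -0.192 with rIFNβ, with log canonical length with -0.033 and -0.096, and with log mean level with -0.127 and -0.167.

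**Figure D5:**
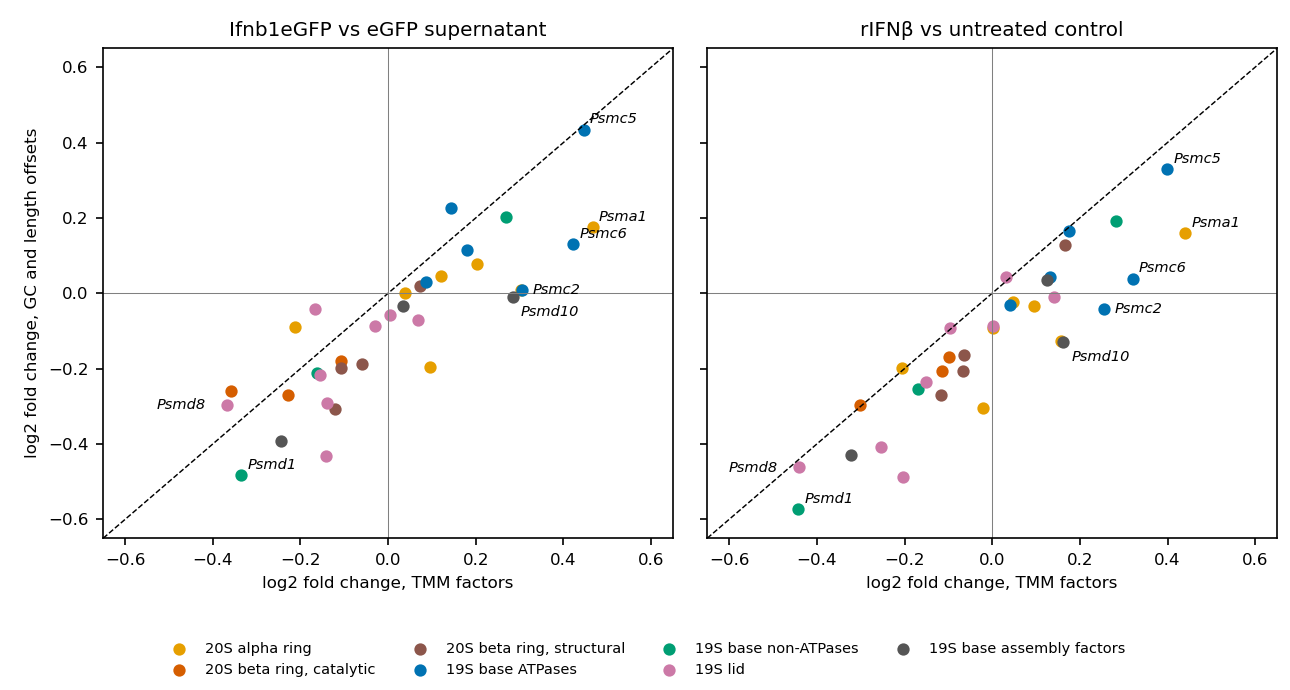
Log2 fold change of each of the 34 genes with TMM factors (x axis) and with offsets for transcript GC content and length (y axis), coloured by role, for Ifnb1eGFP sn against eGFP sn (left) and rIFNβ against control (right). Points below the dashed line of equality have a lower value with the offsets. Psmc5 and Psma1 stay above 0 and Psmd1 and Psmd8 below it, while Psmc2 and Psmd10 come to lie near or below 0.

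Other genes of the pathway were taken from lists chosen in the same way. All 5 of the 20S activators and inhibitor were higher in both comparisons, and 4 of them with the offsets, where Psme4 was at 0.09 and 0.10 (adjusted p = 0.192 and 0.185). Psme1 and Psme2, the interferon-inducible activator subunits, rose by 1.3 ± 0.075 and 1.09 ± 0.070 on the log2 scale in the sn comparison and by 1.42 ± 0.075 and 1.09 ± 0.070 with rIFNβ. Psme3, a nuclear activator, rose by 0.26 and 0.17 (adjusted p = 5.48e-05 and 0.00101). Of 5 assembly factors of the core, 1 was higher and 1 lower in both, and Psmg2 had the smallest adjusted p of the list with rIFNβ (0.38, adjusted p = 0.00197) and in the sn comparison (0.27, adjusted p = 0.0127). Psma8, a testis form of an alpha subunit, was not called (-0.12 and 0.08).

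Of 6 further 19S components and associated enzymes, 2 were lower in the sn comparison and 3 with rIFNβ, and none was higher. With the offsets 5 (Sem1, Usp14, Uchl5, Ube3c and Ecpas) were lower in the sn comparison and 4 with rIFNβ. Usp14, a deubiquitinase of the proteasome, had 129, 132 and 132 CPM in the controls, 127, 124 and 126 with eGFP sn, 102, 94.2 and 92.1 with Ifnb1eGFP sn and 97.2, 97 and 92.7 with rIFNβ, with log2 fold changes of -0.38 ± 0.044 (adjusted p = 1.99e-05) and -0.46 ± 0.044 (adjusted p = 4.28e-06). Of 6 shuttle receptors 1 was higher and 3 lower in both (2 higher with rIFNβ under the offsets), with Ubqln2 at -0.37 and -0.40 (adjusted p = 0.000895 and 0.00052). Of 4 regulators of subunit transcription 1 was higher and 2 were lower in both. Nfe2l1 itself was at 0.01 ± 0.074 and 0.09 ± 0.074 and not called. Vcp, an ATPase that extracts proteins for degradation and is needed for Nfe2l1 processing, had 630.3, 652 and 646 CPM in the controls, 624, 634 and 629 with eGFP sn, 388, 385 and 387 with Ifnb1eGFP sn and 373, 377 and 372 with rIFNβ. It fell in all 6 libraries with IFNβ, to -0.70 ± 0.033 and -0.78 ± 0.034 on the log2 scale (adjusted p = 1.5e-08 and 5.64e-09), beside lowest values of -0.37 and -0.44 among the 34 proteasome genes.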

How the data were processed

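Total RNA libraries (stranded kit) of 12 BMDM cultures were sequenced by the authors. Per the labels and methods, RSEM 1.3.3 was used for alignment and gene counting against a mouse reference named as both GRCm39 and mm10; the annotation release and strand setting are not given in the sources used here. The deposited matrix holds these estimated counts (expected counts), not normalized, with 12% of values not whole. Counts were rounded. Replicates were not pooled, and p-values measure the spread between these libraries.

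Genes were kept by filterByExpr, scaled by TMM and tested with edgeR 4.0.16 (quasi-likelihood F test, R 4.3.3) in 1 model of the 12 libraries with 1 mean per condition, as glmQLFit contrasts, with Benjamini-Hochberg adjustment over 15033 genes. CPM values use TMM library sizes. All p-values are 2-sided. A permutation test of 3 against 3 libraries could not go below 0.1 and was not used. Gene lengths and GC content (99.5% of genes) came from GENCODE on GRCm39, and promoters from RefSeq on GRCm38.p6. The 34 genes, the other lists and the rule for genes given in full were chosen with earlier results of these data known. In full were given the 4 rises and 4 falls with the smallest adjusted p in the sn comparison, the catalytic subunits, the assembly chaperones, and the smallest adjusted p of each other comparison. For the interaction that adjusted p was tied, and the first of the tied genes in list order, Psma2, was taken. Of other genes, the immunoproteasome and activator subunits and the smallest adjusted p of each list were named, except for 1 list that is not reported here; Nfe2l1, Psma8 and Psme3 were named for their role. Alternatives were RLE factors, library totals, no filter beyond 1 count, offsets for GC content and length (natural splines, 5 degrees of freedom), the replicate number as a block, only the compared conditions, DESeq2 1.42.0, added pseudogene counts, other gene lengths and leaving out each library. Depth (31526034 to 45348457 counts) is similar across conditions. The estimated counts of 19 of the 34 genes were whole in every library, those of 12 in none. Annotated pseudogenes named after Psma5, Psmb5, Psmb6 and Psmb7 held at most 10.02 counts in a library.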

Additional observations from a re-analysis of the deposited data

How the results depend on the processing

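Of 662 values recomputed under other settings, 588 were rated as unchanged. Counts had to stay within 1.5 times, and values of single genes had to keep their direction and their side of the threshold. A median could be rated as unchanged with its sign turned, as in the sn comparison without the filter (0.018 and -0.003). The counts of changed proteasome genes (21 in the sn comparison and 21 with rIFNβ) became 0 in both at the thresholds of the study. Leaving out 1 library gave 18 to 23 and 17 to 19, and for Ifnb1eGFP sn against rIFNβ 0 to 5. That comparison also gave 1 gene with DESeq2 and 1 with the offsets and the replicate block together. The shares of all genes in those fits of that comparison are not given here. The eGFP sn comparison and the interaction gave 0 in every setting run.

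The medians of the log2 fold changes, 0.018 and 0.002, became -0.019 and -0.045 with RLE factors, -0.066 and -0.11 with the GC and length offsets, and -0.066 and -0.11 with the offsets and the block, and with only the compared conditions that of rIFNβ became -0.032. Without 1 library they lay between -0.047 and 0.032 and between -0.011 and 0.025. RLE factors moved the median of all genes from 0.028 to -0.007 and from 0.044 to -0.003. With the offsets the medians of all genes moved less, to 0.001 and -0.009. The cause was not tested.

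Among the genes given in full, directions turned for Psmd9 in the sn comparison (-0.006 with RLE factors and DESeq2, -0.035 with the offsets, -0.04 with the offsets and the block, and -0.159 to 0.117 when 1 library was left out, below 0 without eGFP sn replicate 3, at -0.052, and without Ifnb1eGFP sn replicate 2) and, with the offsets and with the offsets and the block, for Psmd10 in the sn comparison (-0.01 and -0.01) and, with rIFNβ, for Psmc2 (-0.041 and -0.041), Psmd10 (-0.13 and -0.132) and Psma2 (-0.127 and -0.127). Over all 34 genes the offsets turned the sign of 5 in the sn comparison (Psma3, Psmd7, Psmd12, Psmd9, Psmd10) and 9 with rIFNβ (Psma2, Psma4, Psma5, Psma6, Psmc2, Psmc4, Psmd7, Psmd12, Psmd10), with Psma5 as a 6th in the sn comparison when the block was added. RLE factors and DESeq2 each turned 2 (Psmd7, Psmd9) and 4 (Psma4, Psmc4, Psmd3, Psmd7), the fit of only the compared conditions 3 with rIFNβ (Psma4, Psmd3, Psmd7), and the fit without a filter 1 in the sn comparison (Psmd7). With rIFNβ, calls of Psma2, Psmc1 and Psmd10 were lost with RLE factors and with DESeq2, and of Psmc1 and Psmd10 with only the compared conditions. Of Psmb1 and Psmd6 the sn calls were lost with only the compared conditions. Of the 502 values of single genes, 30 lost and 14 gained a call with their direction kept, and a further 14 turned direction. Among those that turned, the values of Psmd10 in both comparisons and of Psmc2 with rIFNβ also lost their call.

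Same-numbered libraries had deviations from their condition means that correlated with r between 0.0582 and 0.252 (mean 0.148, 18 pairs), against a mean of -0.0742 for 36 pairs of other numbers, and 12 of 12 libraries correlated best with their own number. The labels do not say that a number marks shared mice, and not every pair passed 0.1, so the number is only a hint. With it as a replicate block, 22 genes were called in the sn comparison (10 higher, 12 lower) and 21 with rIFNβ (11 and 10), and none in the other 3. These were 29.4% higher and 35.3% lower in the sn comparison, beside 32.2% and 26.7% of all genes. With rIFNβ they were 32.4% and 29.4%, beside 32.8% and 26%. Adding pseudogene counts or using library totals changed no call, and without the filter 18 and 15 genes were called (lost were Psmb1, Psmc3 and Psmd6 in the sn comparison and Psma2, Psmb1, Psmc1, Psmd12, Psmd13 and Psmd10 with rIFNβ).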
